A study of Mus musculus with 2 samples.

Results

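Klf2, S1pr1, S1pr4, S1pr5 and Cd69 form a small group of genes that govern whether a T cell leaves the thymus or a tissue and re-enters the blood. They were taken by symbol, 5 of the 27998 genes in the deposited tables, and each symbol belonged to 1 Ensembl identifier. The data were 1 library of hepatic and 1 library of thymic γδ T cells, T lymphocytes whose antigen receptor is built from a γ and a δ chain. Both came from untreated wild type mice of the C57BL/6J strain, 8 weeks of age, and were sorted as CD3e+ TCRγ/δ+ cells, and only the thymic cells were first depleted of CD4- and CD8-bearing cells with magnetic beads. The mice were pooled, and how they were divided between the tissues is not given in the sources used here. Each captured transcript carried a unique molecular identifier (UMI) in droplet-based 3′ chemistry, and the authors deposited the number of UMIs per gene and cell.

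Sphingosine 1-phosphate (S1P) is a lipid that is abundant in blood and lymph and scarce inside tissues, and lymphocytes follow this gradient out of the thymus through the receptor S1PR1. The transcription factor KLF2 drives the gene of S1PR1. CD69, a membrane protein induced by activation, binds S1PR1 at the cell surface and takes it into the cell, so its action on S1PR1 is on the protein and not on the transcript that is counted here. S1PR5 serves the exit of NK cells and effector T cells and needs the transcription factors T-bet (Tbx21) and ZEB2, and S1PR4 is a further S1P receptor of lymphocytes.

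In the mm10 build, the annotation placed Klf2 (ENSMUSG00000055148) at chr8:72319033-72321656 on the plus strand. S1pr1 (ENSMUSG00000045092) lay at chr3:115710433-115715072, S1pr4 (ENSMUSG00000044199) at chr10:81497747-81500132, S1pr5 (ENSMUSG00000045087) at chr9:21242912-21248443 and Cd69 (ENSMUSG00000030156) at chr6:129267325-129275436, all on the minus strand. All 5 are protein-coding genes. Of the 5 genes, 3 had an entry among the RefSeq promoter sequences (GRCm38.p6), and the 250 bases before the start used there are shown. KLF2 and its relatives bind CACCC boxes, which are given in capitals (CACCC, or GGGTG on the other strand). The stretches are chr8:72318812-72319061 (plus strand) for Klf2, chr10:81500138-81500387 (minus strand) for S1pr4 and chr9:21248444-21248693 (minus strand) for S1pr5, each written 5′ to 3′ along its gene.
Klf2: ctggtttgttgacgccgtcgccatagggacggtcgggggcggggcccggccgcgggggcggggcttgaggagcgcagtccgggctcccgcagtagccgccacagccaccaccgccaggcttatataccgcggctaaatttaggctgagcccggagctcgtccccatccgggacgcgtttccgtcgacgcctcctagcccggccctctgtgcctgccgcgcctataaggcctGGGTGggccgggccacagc
S1pr4: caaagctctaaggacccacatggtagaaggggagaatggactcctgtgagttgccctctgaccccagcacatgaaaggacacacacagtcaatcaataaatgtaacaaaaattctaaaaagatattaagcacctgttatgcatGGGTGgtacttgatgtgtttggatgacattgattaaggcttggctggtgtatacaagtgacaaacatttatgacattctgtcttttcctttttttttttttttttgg
S1pr5: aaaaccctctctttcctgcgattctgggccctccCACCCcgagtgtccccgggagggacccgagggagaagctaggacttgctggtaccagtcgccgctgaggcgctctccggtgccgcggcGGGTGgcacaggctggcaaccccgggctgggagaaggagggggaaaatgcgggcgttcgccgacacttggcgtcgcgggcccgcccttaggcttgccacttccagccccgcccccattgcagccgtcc
The box was found 1 time in the Klf2 stretch, 1 time in that of S1pr4 and 2 times in that of S1pr5. The Klf2 stretch ends at 72319061, past the annotated gene start at 72319033, and its box lies within the annotated gene. The box is common, and 52.0% of 32851 promoters held it in the same window. The S1pr4 stretch had 38.8% G and C, against 71.2% for Klf2 and 69.2% for S1pr5. A FOXO motif (GTAAACA, or TGTTTAC) and a T-box motif (GGTGTGA, or TCACACC) were in none of the 3 stretches and in 3.17% and 3.33% of all promoters.

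After cells with 800 to 4000 detected genes and at most 6% mitochondrial UMIs were kept, 8075 hepatic cells with a median of 2741 UMIs and 4351 thymic cells with a median of 3271 UMIs remained. The study analysed fewer cells of each tissue under these same limits and a further limit of 50% ribosomal UMIs. Only 9 hepatic and 0 thymic cells here were over that further limit. The cells used here are thus not the study's cell set. The CD3 chain transcript Cd3e had a UMI in 88.6% of hepatic and 87.5% of thymic cells, Cd4 in 0.322% and 0.161%, and Cd8a in 24.0% and 1.03%. The γδ label was not checked here against receptor transcripts. Levels are in CPM, which is the summed UMIs of a gene in a set of cells per 1000000 UMIs of that set, and the exact Poisson 95% interval follows in parentheses. Such an interval holds the counting error alone. Each tissue had 1 library, so differences have no replicate check and were not tested. Where a number of genes is set against a 2-fold limit, the genes with at least 50 UMIs over both sides were compared. Immediate-early genes such as Jun and Fos, which are induced by signals and by tissue digestion, summed to 19060 CPM in the liver and 3663 CPM in the thymus. Of these, 10 of 12 were at least 2-fold higher in the liver, where 12.2% of 10771 genes were. Their part in the differences between the tissues was not tested.

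In the thymus, the levels of Klf2, S1pr1 and S1pr4 were higher in cells low in Cd24a than in cells high in it. Cd24a encodes CD24, which immature thymic γδ T cells carry and mature ones lose. The UMIs of each cell were drawn down at random to 1500, and the cell was placed by its remaining Cd24a UMIs. This gave 424 cells with 3 or more, 428 cells with 2, 998 cells with 1 and 2494 cells with 0. In the full counts Cd24a was at 1889, 1047, 582 and 171 CPM in these sets. The last set was therefore low in Cd24a but not without it. Klf2 was at 379 (348 to 412) CPM in the cells with 3 or more Cd24a UMIs, 357 (329 to 387) with 2, 453 (433 to 473) with 1 and 635 (619 to 651) with 0. The lower pair of steps overlapped, and each later step was higher than the one before. From 3 or more to 0 Cd24a UMIs the log2 ratio was 0.74 (exact conditional binomial 95% interval 0.62 to 0.87), a 1.67-fold difference.

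S1pr1, the exit receptor itself, went from 90.6 (75.8 to 107) and 81.4 (68.4 to 96.3) CPM at 3 or more and at 2 Cd24a UMIs to 123 (113 to 134) at 1 and 171 (163 to 179) at 0. Its log2 ratio over the whole course was 0.92 (0.66 to 1.18), 1.89-fold. S1pr4 was at 39.5 (29.99 to 51.1), 35.7 (27.2 to 45.9), 43.6 (37.6 to 50.4) and 57.2 (52.5 to 62.2) CPM in the same order. Only the last of these intervals lay above the 2 lowest values with their errors, and the log2 ratio was 0.53 (0.14 to 0.95). Cd69 showed no such course by Cd24a. It was at 222 (198 to 247), 240.1 (217 to 265), 190 (177 to 204) and 235 (226 to 245) CPM, with a log2 ratio of 0.08 (−0.08 to 0.26). With the stage read from other immature markers the ratio turned to −0.27 (−0.40 to −0.14), lower in the later cells. S1pr5 had 0 UMIs at every step, and 3 counts in the cells placed at 0 Cd24a UMIs would be 0.312 CPM.

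**Figure D1:**
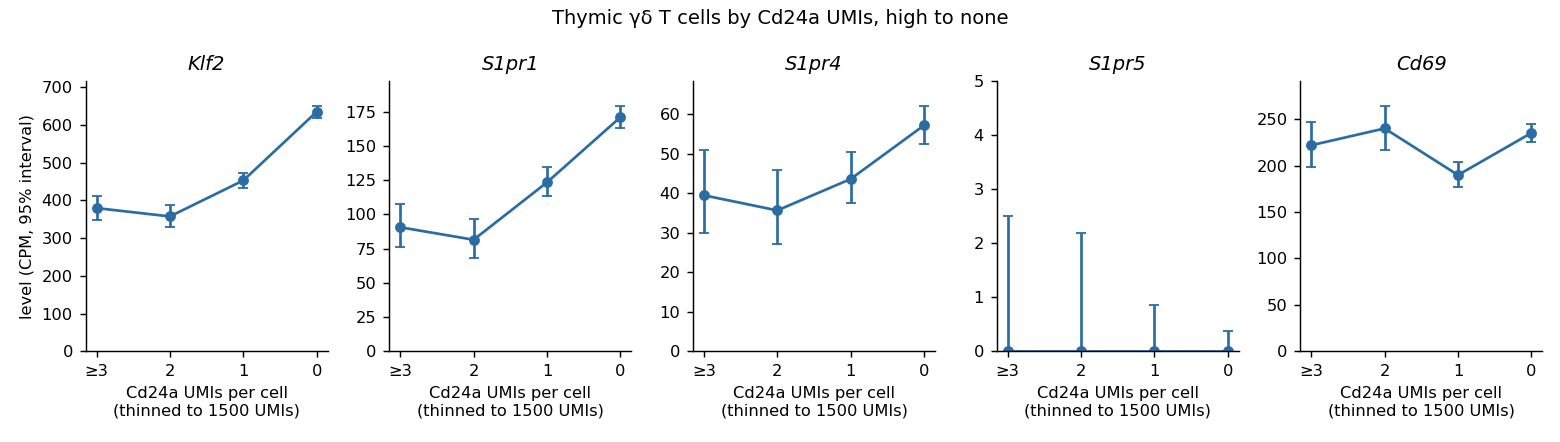
Levels of the 5 genes in thymic γδ T cells, in CPM with exact Poisson 95% intervals, against Cd24a UMIs per thinned cell from 3 or more on the left to 0 on the right. Klf2, S1pr1 and S1pr4 end at 635, 171 and 57.2 CPM, above their level at 3 or more Cd24a UMIs, Cd69 stays between 190 and 240.1 CPM, and S1pr5 lies at 0 with its upper limit drawn as a bar.

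None of the 4 genes with UMIs passed a 2-fold difference along this course, although S1pr1 lay near it and passed with the highest Scrublet doublet scores removed (log2 1.01), with the mean of the cells' own CPM (1.04) and with the stage read from other immature markers (1.02). Over 8657 genes, 4.83% were at least 2-fold higher and 1.49% at least 2-fold lower in cells with 0 than with 3 or more Cd24a UMIs, with a median log2 ratio of −0.02. Of 5 homing genes linked to KLF2 and FOXO1, 3 were past 2-fold. Ccr7, the receptor that guides T cells to lymph nodes, was at 86.1 against 21.1 CPM (log2 2.03, 1.51 to 2.59). Itgb7, an integrin chain for gut homing, was at 163 against 43.6 CPM, and Il7r, the receptor for the survival cytokine IL-7, at 104 against 22.5 CPM. Of 5 tissue residence genes compared, 3 were also at least 2-fold higher, Cxcr6 (17.6-fold), Xcl1 (25.2-fold) and Bhlhe40 (5.78-fold), and the list median was log2 2.53. The Cxcr6 level with 3 or more Cd24a UMIs rests on few UMIs, and the intervals of these folds are not reported here. Of 8 interferon genes, 3 were, Isg15, Ifit1 and Ifit3. Foxo1, which activates Klf2 and Il7r, was alike at the ends, with 102 (95.4 to 108) CPM at 0 and 100.1 (84.6 to 118) at 3 or more Cd24a UMIs. Between them it was at 86.1 (77.5 to 95.3) with 1 and 83.8 (70.5 to 98.8) with 2. Of 9 regulators compared, only Klf4, a relative of Klf2, was past 2-fold, at 44.6 against 96.0 CPM. Among 19 signalling and motility genes, Rgs1, which dampens chemokine receptor signals, was the only one past 2-fold, at 233 against 80.3 CPM.

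The mix of cell classes changed along Cd24a. Both libraries were clustered together without the 5 genes and their lists among the variable genes, and the clusters were named from marker genes. An immature-like class (markers such as Hes1, Ccr9 and Sox4) made up 85.4% of the thymic cells with 3 or more Cd24a UMIs and 44.7% of those with 0. The class described below as naive-like went from 0% to 7.10% between the same sets, and the IL-17-like class from 0.236% to 6.38%. A further cluster, led by Cd200, S1pr1, Tsc22d1 and Ccr7 together with hemoglobin genes, made up 3.30% and 30.4%. Its highest marker score (mean log2 ratio to the other clusters) was for erythroid markers, at 1.77, against 0.61 for the next class. The naming rule did not give the erythroid name, so the cluster is called the Cd200 cluster here. S1pr1 is among its leading genes, although the gene was not used to build it. Its erythroid markers summed to 304 CPM in the thymus, against 45.6 CPM in immature-like cells, and their part in its levels was not tested.

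How the levels moved with Cd24a within a class was not the same in every class. In immature-like cells S1pr1 was at 82.5 (70.7 to 95.8) CPM with 2 or more Cd24a UMIs, 103 (90.4 to 117) with 1 and 106 (96.4 to 117) with 0. Klf2 was at 369 (343 to 395), 397 (372 to 424) and 431 (411 to 451) CPM in the same cells. In the Cd200 cluster S1pr1 was at 292 (216 to 386), 353 (306 to 406) and 372 (348 to 397) CPM, with overlapping intervals, and Klf2 at 1096 (944 to 1267), 1047 (965 to 1135) and 1004 (965 to 1045). Cycling-like cells showed the widest course of these 3 sets, with S1pr1 at 52.6 (38.4 to 70.4), 60.8 (48.1 to 75.8) and 104 (90.2 to 119) CPM and Klf2 at 213 (183 to 246), 289 (260.1 to 319) and 427 (399 to 457). How much of the pooled course belongs to the mix and how much to change within classes was not tested. From immature-like to Cd200 cluster cells of the thymus, S1pr1 differed by 3.66-fold (log2 1.87, 1.74 to 2.00), Klf2 by 2.503-fold (log2 1.32, 1.25 to 1.39) and S1pr4 by 1.71-fold (log2 0.77, 0.53 to 1.01). Cd69 was at 247 and 251 CPM in these classes, with a log2 ratio of −0.02 (−0.14 to 0.10).

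Levels were then compared over the classes of both tissues, 13 sets of at least 50 cells each. Apart from the Cd200 cluster and a cycling-like class, the thymus held 189 cells of the cluster named naive-like (markers such as Tcf7 and Lef1) and 167 IL-17-like cells (markers such as Il17a and Il23r). The naive-like name holds in the liver only against some classes. Its markers summed to 652 CPM in naive-like hepatic cells and to 172 in IL-17-like, 134 in Cd28-like and 58.1 in NK-like cells. They were higher in the 52 hepatic Cd200 cluster cells, at 1179 CPM, and in the 4 hepatic immature-like cells, at 1730. In the naive-like thymic cells they summed to only 446 CPM. That was below the 1206 of immature-like, 1286 of cycling-like and 1078 of Cd200 cluster thymic cells. The naive-like thymic cells also held 1417 CPM of NK-like markers, against 2412 in naive-like hepatic cells and 42.7 in immature-like cells. In the thymus the name therefore stands for cells that fell in the same cluster as the hepatic ones. The liver held 1130 naive-like, 790 IL-17-like, 2700 Cd28-like, 2956 NK-like and 254 Klrg1-like cells, with 105 myeloid-like cells. The myeloid-like cells also held 13083 CPM of NK-like markers, against 18831 in NK-like cells. Whether they are myeloid cells or doublets was not tested. The paper did not exclude a doublet or artifact for its cluster with Lyz2, Apoe and Cd74. Only 52 hepatic cells fell in the Cd200 cluster and 4 in the immature-like class, and the Cd28-like, NK-like and Klrg1-like classes had 4, 2 and 1 thymic cells. These classes are therefore nearly each of 1 library, and class and library cannot be told apart there.

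Klf2 was highest in naive-like hepatic cells at 2556 (2505 to 2608) CPM. The hepatic Cd200 cluster cells at 2214 (1994 to 2451) and IL-17-like cells at 2213 (2155 to 2272) did not differ from each other beyond counting error. The hepatic effector classes were lower, Cd28-like cells at 1229 (1205 to 1254), Klrg1-like cells at 1175 (1100 to 1254) and NK-like cells at 1056 (1034 to 1078), of which the Cd28-like and Klrg1-like intervals overlapped. In the thymus, IL-17-like cells led at 1251 (1155 to 1353), ahead of the Cd200 cluster at 1016 (981 to 1052) and naive-like cells at 667 (604 to 735). Immature-like cells at 406 (393 to 420) and cycling-like cells at 339 (321 to 357) were lowest. A Klf2 UMI was seen in 62.2% of Cd28-like and 55.7% of NK-like cells after thinning to 1500 UMIs (73.8% and 68.5% unthinned), and in 35.9% of immature-like thymic cells (56.0% unthinned). Myeloid-like hepatic cells also had one in 74.3% (91.4% unthinned), so no class here gives a background share for Klf2.

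S1pr1 spread far more widely. The thymic Cd200 cluster was highest at 364 (343 to 386) CPM and the 52 hepatic cells of that cluster followed at 245 (176 to 333). Naive-like hepatic cells at 132 (120.2 to 144), IL-17-like thymic cells at 119 (90.3 to 153) and immature-like thymic cells at 99.4 (92.8 to 106) came next, and neighbours in this order did not differ beyond counting error. IL-17-like hepatic cells were at 92.1 (80.6 to 105), naive-like thymic cells at 83.5 (62.2 to 110) and cycling-like thymic cells at 79.7 (71.3 to 88.8). The effector classes of the liver were at the bottom, with 16.7 (8.92 to 28.6) in Klrg1-like, 7.83 (5.99 to 10.1) in Cd28-like and 3.36 (2.23 to 4.86) in NK-like cells. Naive-like hepatic cells held 16.8-fold more S1pr1 than Cd28-like cells (log2 4.07, 3.69 to 4.48) and 39.1-fold more than NK-like cells (log2 5.29, 4.74 to 5.90). After thinning, an S1pr1 UMI was seen in 41.1% of thymic Cd200 cluster cells, 18.8% of naive-like hepatic cells and 0.406% of NK-like cells, at median depths of 2922, 3006 and 2688 UMIs (60.6%, 30.8% and 0.914% unthinned). In myeloid-like cells of the same liver library, at a median depth of 3069 UMIs, the share was 0 of 105 after thinning (exact binomial upper limit 3.45%) and 2.86% unthinned, from 3 UMIs. The unthinned shares of Cd28-like (2%) and NK-like cells were below that value. The myeloid-like cells also carried NK-like markers, so they give no background share for S1pr1. Whether the S1pr1 of Cd28-like and NK-like cells is above background was not tested.

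**Figure D2:**
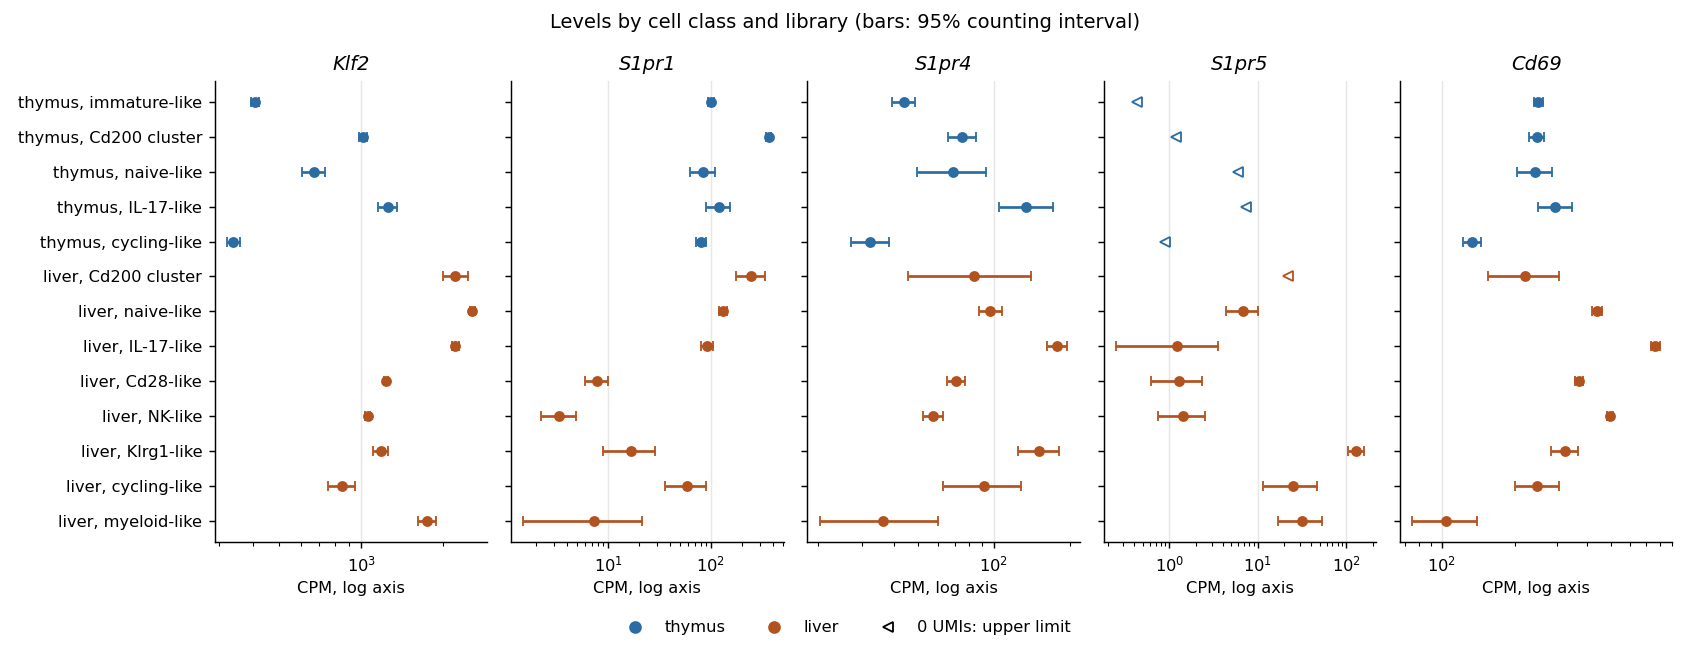
Levels of the 5 genes by cell class and library, in CPM on log axes, each gene on its own scale, with exact Poisson 95% intervals. S1pr1 spans 3.36 CPM (NK-like, liver) to 364 CPM (Cd200 cluster, thymus), Klf2 only 339 to 2556 CPM, and S1pr5 stands out in Klrg1-like cells at 130.1 CPM, with open triangles for the upper limit where no UMI was counted.

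The order for S1pr4 was different. IL-17-like hepatic cells at 179 (162 to 196) CPM, Klrg1-like cells at 151 (125 to 181) and IL-17-like thymic cells at 135 (104 to 171) led, and neighbours among them did not differ beyond counting error. Naive-like hepatic cells at 96.9 (87.1 to 107), the thymic Cd200 cluster at 74.9 (65.6 to 85.1), Cd28-like cells at 70.7 (64.9 to 76.8), naive-like thymic cells at 68.8 (49.6 to 93.0) and NK-like cells at 57.2 (52.1 to 62.5) lay in the middle. Immature-like thymic cells were at 43.9 (39.5 to 48.5) and cycling-like thymic cells at 32.2 (27.0 to 38.2). IL-17-like cells had 3.12-fold more S1pr4 than NK-like cells in the liver (log2 1.64, 1.45 to 1.83) and 3.07-fold more than immature-like cells in the thymus (log2 1.62, 1.22 to 2.00). In both tissues IL-17-like cells were also above naive-like cells, 1.84-fold in the liver and 1.96-fold in the thymus.

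Most S1pr5 UMIs fell in 1 class of the liver. Klrg1-like cells, which carry the terminal effector markers Klrg1, Gzmk and Cx3cr1, held 101 of its 173 hepatic UMIs, a level of 130.1 (106 to 158) CPM. Myeloid-like cells followed at 31.5 (16.8 to 53.9) and cycling-like cells at 24.9 (11.4 to 47.2), and naive-like cells were at 6.73 (4.35 to 9.93). NK-like cells at 1.44 (0.744 to 2.52), Cd28-like cells at 1.28 (0.615 to 2.36) and IL-17-like cells at 1.21 (0.249 to 3.53) did not differ beyond counting error. Klrg1-like cells thus had 90.3-fold more than NK-like cells (log2 6.50, 5.63 to 7.50). A UMI was seen in 17.3% (exact binomial interval 12.9% to 22.6%) of thinned Klrg1-like cells and in 0.135% of NK-like and 0.0741% of Cd28-like cells, at median depths of 2854, 2688 and 2718 UMIs (25.6%, 0.372% and 0.333% unthinned). Zeb2, needed for S1pr5 in NK cells, was at 254 (220 to 292) CPM in Klrg1-like cells and at 2.64 (1.66 to 4.00) in NK-like cells. Tbx21 was at 108 (86.3 to 134) and 101 (93.8 to 107) CPM in these classes and at 83.4 (77.1 to 90.1) in Cd28-like cells, and the Klrg1-like and NK-like intervals overlapped. In the same Klrg1-like cells S1pr1 was at 16.7 CPM and Cd69 at 323 (285 to 366).

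Cd69 was highest in IL-17-like hepatic cells at 767 (733 to 802) CPM, followed by NK-like cells at 496 (482 to 512), naive-like cells at 438 (417 to 460), Cd28-like cells at 370.0 (357 to 384) and Klrg1-like cells at 323. Each was above the next beyond counting error. The thymic classes other than cycling-like cells lay together, from 242 (205 to 285) in naive-like to 296 (250 to 347) in IL-17-like cells, and neighbours among them did not differ beyond counting error. The 52 hepatic cells of the Cd200 cluster were at 221 (156 to 305), below these thymic values but with an interval that overlaps theirs. NK-like cells, with the lowest S1pr1, had 1.34-fold more Cd69 than Cd28-like cells (log2 0.42, 0.36 to 0.49), and IL-17-like hepatic cells held the most Cd69 at 92.1 CPM of S1pr1. The immediate-early genes summed to 22814 CPM in IL-17-like, 20081 in NK-like, 20977 in Cd28-like, 13474 in naive-like and 10763 in Klrg1-like hepatic cells. In the thymus they summed to 9267 CPM in IL-17-like, 7049 in naive-like, 3885 in immature-like and 3744 in Cd200 cluster cells. Their part in the order of Cd69 and Klf2 was not tested.

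Over all kept cells, Klf2 was at 1481 CPM in the liver and 539 in the thymus (log2 1.46, 1.42 to 1.49) and Cd69 at 457 and 223 (log2 1.04, 0.98 to 1.09). S1pr4 was at 83.3 and 50.2 CPM (log2 0.73, 0.61 to 0.85). S1pr1 went the other way, at 36.8 and 143 CPM (log2 −1.96, −2.07 to −1.85), 3.89-fold lower in the liver. S1pr5 had 173 UMIs in the liver and 0 in the thymus. It was at least 40.7-fold higher in the liver when set against 3 counts in the whole thymus library, 0.176 CPM. Of the genes with UMIs in both libraries, Klf2 and Cd69 were at least 2-fold higher and S1pr1 at least 2-fold lower. Over 10771 genes, 12.2% were higher and 17% lower by this limit, with a median log2 ratio of −0.21. S1pr5 met the limit of 50 UMIs through the liver alone and is not counted here, although those shares did not leave such genes out. Cd69 fell short of 2-fold when the total left out mitochondrial and ribosomal-protein genes (log2 0.89). Of the 5 homing genes, 2 were at least 2-fold lower in the liver, among them Ccr7 (log2 −1.15, −1.29 to −1.02), and Itgb7 was higher at 358 against 123 CPM (log2 1.54, 1.47 to 1.61), with a list median of log2 0.74. Of 8 tissue residence genes, 6 were at least 2-fold higher in the liver, among them Cxcr6 at 494 against 39.1 CPM, and Itgae was lower at 12.8 against 47.1 CPM. Rgs1 was 25.3-fold and Rgs2 2.27-fold higher in the liver.

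Whole libraries compare different mixes of cells, and the classes found in both gave other values. In naive-like cells, Klf2 was 3.83-fold higher in the liver (2556 against 667 CPM, log2 1.94, 1.80 to 2.09), S1pr1 1.58-fold higher (132 against 83.5 CPM, log2 0.66, 0.24 to 1.101), S1pr4 1.41-fold (log2 0.49, 0.03 to 0.99) and Cd69 1.81-fold (log2 0.85, 0.61 to 1.11). The lower S1pr1 of the whole liver library was therefore not seen within naive-like cells. S1pr5 had 25 UMIs in hepatic and 0 in thymic naive-like cells, at least 1.37-fold against 3 counts in the latter. Klf2 was the only one of the 4 genes compared past 2-fold, where 5.05% of 5821 genes were at least 2-fold higher and 3.87% lower. Ccr7 at 168 against 47.5 CPM was also past 2-fold, and Itgae, the integrin chain CD103, was 11.8-fold lower. Of the 12 immediate-early genes, 6 were at least 2-fold higher in hepatic naive-like cells, and their sum was 13474 against 7049 CPM.

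In IL-17-like cells, Klf2 was 1.77-fold higher in the liver (log2 0.82, 0.70 to 0.94) and Cd69 2.59-fold higher (767 against 296 CPM, log2 1.38, 1.13 to 1.63). S1pr4 was 1.33-fold higher (log2 0.41, 0.03 to 0.80), and S1pr1 had a log2 ratio of −0.37 (−0.78 to 0.07). In the Cd200 cluster the hepatic cells had 2.18-fold more Klf2 (log2 1.12, 0.96 to 1.28) and less S1pr1 (log2 −0.57, −1.06 to −0.12), with Cd69 at a log2 ratio of −0.16 (−0.68 to 0.32). Klf2 was thus higher in the hepatic cells of each of these 3 classes, while S1pr1 was higher in 1 and lower in 1 beyond counting error.

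Within the liver, naive-like cells were set against all other hepatic cells. S1pr1 was 6.71-fold higher in them, at 132 against 19.6 CPM (log2 2.75, 2.55 to 2.94), and was the only member of the group past 2-fold. Of 9703 genes, 1.86% were at least 2-fold higher and 9.86% at least 2-fold lower, with a median log2 ratio of −0.23. Klf2 was at 2556 against 1285 CPM, a log2 ratio of 0.99 (0.96 to 1.03) that lies on the 2-fold limit and passes it under 6 of 10 alternatives, with values from 0.96 to 1.24. S1pr4 was at a log2 ratio of 0.26 (0.09 to 0.43), S1pr5 at −0.11 (−0.78 to 0.51) and Cd69 at −0.07 (−0.15 to 0.00). S1pr5 was past 2-fold lower, at −1.27 (−2.25 to −0.43), when no gene was taken out of the variable genes, and Cd69 was at 0.17 (0.10 to 0.25) when the total left out mitochondrial and ribosomal-protein genes. Ccr7 at 168 against 6.31 CPM was 26.6-fold higher in naive-like cells. Among regulators, Eomes, a T-box factor, was 7.40-fold and Klf3 2.22-fold higher, and Gfi1 2.33-fold lower. S1pr2, an S1P receptor that holds cells back, was at 1.61 against 6.70 CPM. Of 8 tissue residence genes, 4 were at least 2-fold lower, Itga1, Cxcr6, Zfp683 and Bhlhe40, and Rgs1 was 4.46-fold lower at 1072 against 4782 CPM.

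KLF2 drives the gene of S1PR1, and CD69 acts against the S1PR1 protein. After thinning to 1500 UMIs, the S1pr1 level was read in cells with 0, 1, 2 and 3 or more UMIs of each gene. Transcripts were counted and not protein, so the split by Cd69 cannot show the action of CD69 on S1PR1. In both libraries S1pr1 was higher in cells with more Klf2. In the liver it was at 13.6 (11.2 to 16.3), 23.5 (19.6 to 28.1), 45.8 (38.8 to 53.7) and 68.6 (62.7 to 74.9) CPM, and in the thymus at 96.3 (90.3 to 103), 161 (149 to 174), 233 (211 to 258) and 295 (269 to 322) CPM. Each step was higher than the one before beyond counting error. Cells with a Klf2 UMI had more S1pr1 than cells without, with a log2 ratio of 1.85 (1.56 to 2.15) in the liver and 1.11 (0.99 to 1.23) in the thymus. When each class was compared with itself, the log2 ratio was 0.75 in the liver and 0.56 in the thymus, so a part of the pooled value went with class.

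Within immature-like thymic cells, S1pr1 was at 79.2 (71.9 to 87.1), 103 (89.6 to 119), 168 (139 to 201) and 200 (164 to 241) CPM at 0, 1, 2 and 3 or more Klf2 UMIs. In the thymic Cd200 cluster it was at 304 (272 to 339), 344 (306 to 385), 400.1 (349 to 456) and 457 (407 to 512) CPM. IL-17-like hepatic cells showed a wider range, from 41.6 (25.1 to 65.0) to 123 (103 to 147) CPM, and naive-like hepatic cells a narrower one, from 95.9 (72.6 to 124) to 152 (135 to 170). Cd28-like cells, at 5.55 (3.17 to 9.01) and 10.7 (6.62 to 16.3) CPM at the ends, and NK-like cells, at 2.19 (0.946 to 4.32) and 3.34 (1.22 to 7.26), had overlapping intervals. NK-like cells with 3 or more Klf2 UMIs thus lay far below immature-like thymic cells without any. The immediate-early genes summed to 20867 CPM in hepatic cells with 3 or more Klf2 UMIs and 17578 in those with none, and to 4652 and 3572 CPM in the thymus. Their part was not tested.

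By Cd69 the intervals of neighbouring S1pr1 levels overlapped over whole libraries. It was at 38.4 (35.2 to 41.8), 32.7 (28.4 to 37.5), 39.4 (32.1 to 47.9) and 33.3 (24.3 to 44.6) CPM in the liver and at 141 (134 to 147), 160 (146 to 174), 123 (101 to 149) and 122 (81.6 to 175) CPM in the thymus. The log2 ratio of cells with to cells without a Cd69 UMI was −0.16 (−0.35 to 0.04) in the liver and 0.10 (−0.03 to 0.23) in the thymus. With the highest Scrublet doublet scores removed, the hepatic value was −0.23 (−0.44 to −0.02), an interval below 0. By class the ratio was −0.64 (−1.55 to 0.19) in Cd28-like and −0.42 (−1.66 to 0.76) in NK-like hepatic cells, from 61 and 28 S1pr1 UMIs. In the hepatic Cd200 cluster, the 39 cells without a Cd69 UMI held 37 of its 41 S1pr1 UMIs, and the cells with one were too few for a ratio. Immature-like thymic cells were at 103 (95.6 to 112), 99.3 (85.5 to 115), 63.6 (42.9 to 90.7) and 47.2 (19.0 to 97.3) CPM from 0 to 3 or more Cd69 UMIs, and cells with and without a Cd69 UMI had a log2 ratio of −0.21 (−0.44 to 0.01). IL-17-like thymic cells had a log2 ratio of 0.83 (0.02 to 1.61), in the other direction.

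**Figure D3:**
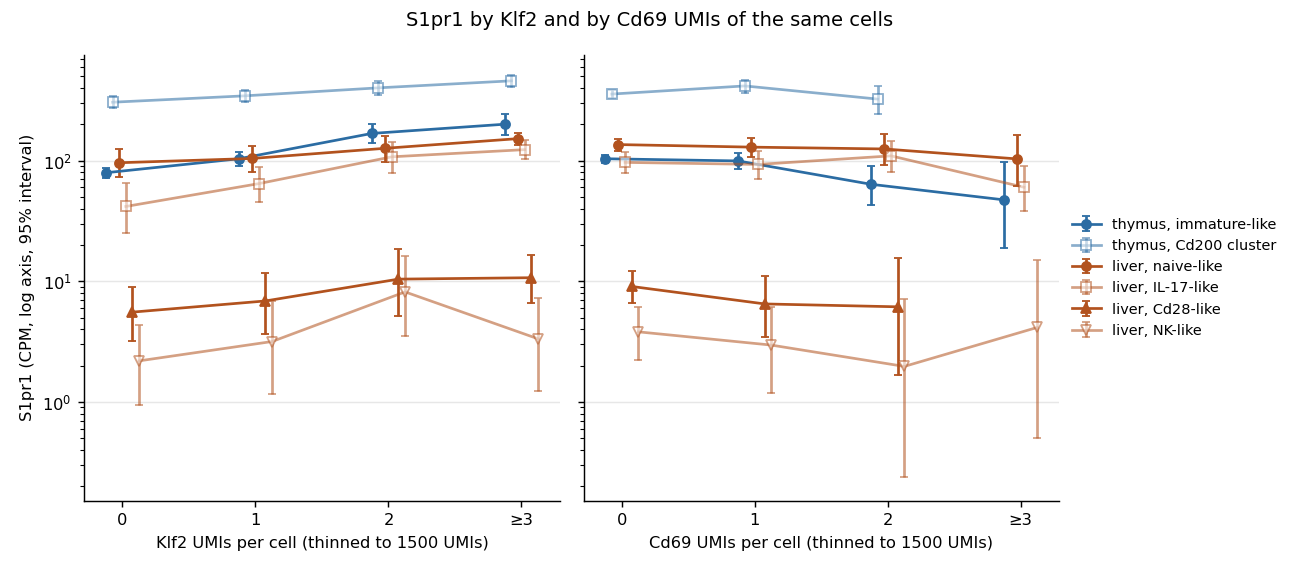
S1pr1 level in CPM, on a log axis with exact Poisson 95% intervals, against the Klf2 UMIs (left) and Cd69 UMIs (right) of the same cells, for 2 thymic and 4 hepatic classes. By Klf2 immature-like thymic cells go from 79.2 to 200 CPM, by Cd69 from 103 to 47.2 CPM, and sets of fewer than 20 cells or with 0 S1pr1 UMIs are not drawn.

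Cells with more Klf2 did not have less Cd69. Hepatic cells with a Klf2 UMI had a little more Cd69 than those without (490.1 against 395 CPM, log2 0.31, 0.25 to 0.37), and so had thymic cells (247 against 206 CPM, log2 0.26, 0.17 to 0.36). Taken jointly, hepatic cells with Klf2 and without Cd69 UMIs had 51.3 (46.7 to 56.2) CPM of S1pr1 and cells with both had 45.6 (40.7 to 50.9). Cells with Cd69 and without Klf2 had 11.2 (7.91 to 15.5) and cells with neither had 15.1 (11.9 to 18.9). In the thymus the same 4 sets were at 208 (196 to 220), 210 (190 to 231), 103 (90.2 to 116) and 94.3 (87.5 to 102) CPM. Over each whole library the sets separated by Klf2, and those that differed in Cd69 alone overlapped. In immature-like thymic cells they also separated by Klf2, with 123 (102 to 149) CPM for both and 83.0 (74.1 to 92.7) for neither. In the thymic Cd200 cluster, cells with Cd69 alone at 355 (288 to 433) CPM overlapped those with Klf2 alone at 390 (360 to 423). Naive-like hepatic cells with neither, at 101 (71.9 to 137) CPM, overlapped those with both at 131 (112 to 153). S1pr4 also went with Klf2, with a log2 ratio of 0.38 (0.24 to 0.52) in the liver and 0.48 (0.29 to 0.68) in the thymus. Within single classes its interval included 0 except in cycling-like thymic cells (0.56, 0.03 to 1.08), as in naive-like hepatic cells at 0.01 (−0.40 to 0.44), IL-17-like hepatic cells at 0.34 (−0.04 to 0.74) and IL-17-like thymic cells at −0.58 (−1.31 to 0.17).

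Over the 13 class and library sets, however, the log2 levels of Klf2 and S1pr1 had a Pearson's r of 0.0065 (Spearman's rho 0.20). S1pr1 and Cd69 had an r of −0.03, S1pr4 and Cd69 an r of 0.69 and Klf2 and S1pr4 an r of 0.56. These are descriptions over 13 points that share 2 libraries. In the plot of Klf2 against S1pr1, the hepatic effector classes had more Klf2 than immature-like thymic cells, at 1056 to 1229 against 406 CPM, with S1pr1 at 3.36 to 16.7 against 99.4 CPM.

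**Figure D4:**
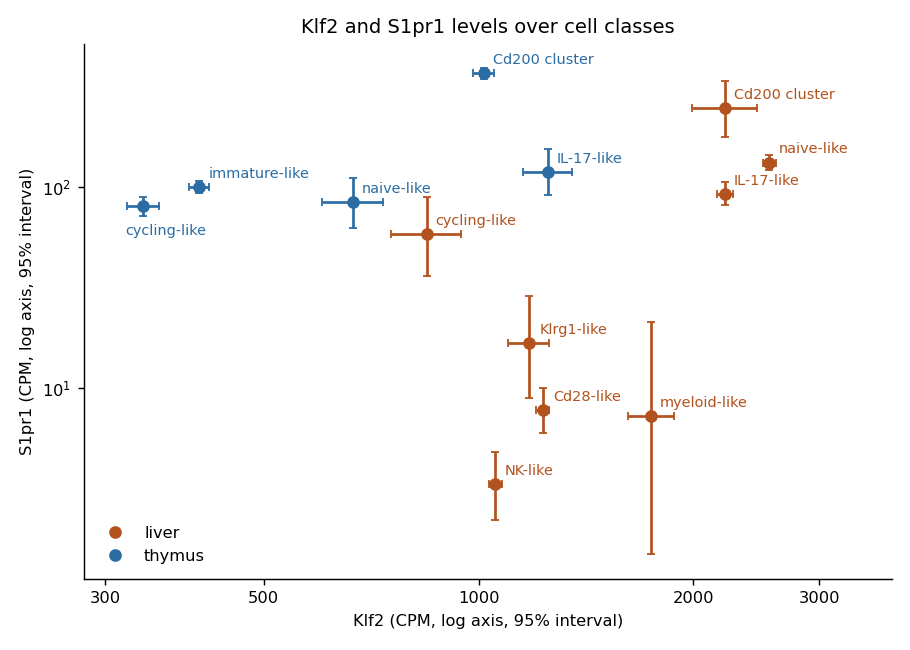
Klf2 against S1pr1 level, both in CPM on log axes with exact Poisson 95% intervals, 1 point for each of 13 class and library sets (thymus in blue, liver in brown). The thymic sets lie at 339 to 1251 CPM of Klf2 with S1pr1 from 79.7 to 364 CPM, while NK-like, Cd28-like and Klrg1-like hepatic cells combine 1056 to 1229 CPM of Klf2 with 3.36 to 16.7 CPM of S1pr1.

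The genes whose log2 levels followed each of the 5 most closely over the same 13 sets were taken among 4265 genes. For Klf2 they were Cited2, Pik3cd and Hexim1 (r 0.86, 0.86 and 0.85). For S1pr1 they were Trib2, Foxo1 and Tsc22d1 (r 0.93, 0.91 and 0.91), and Foxo1 was highest in the thymic Cd200 cluster at 137 (125 to 151) CPM and lower in Cd28-like and NK-like cells at 39.6 (35.3 to 44.3) and 43.4 (39.0 to 48.1). For S1pr4 they were Arl6ip5, Anxa6 and S100a10 (r 0.92, 0.89 and 0.88). S1pr5 was followed by the chemokine gene Ccl9, the oxidase subunit Ncf1 and Zeb2 (r 0.90, 0.87 and 0.87), genes that myeloid cells also carry. Cd69 was followed by Rusc1, Tbc1d10c and Sec62 (r 0.87, 0.85 and 0.81). Foxo1 and Zeb2 were among the listed regulators, and the others were not on any list.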

How the data were processed

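Single-cell RNA was measured in 1 hepatic and 1 thymic library. The authors deposited raw UMI counts for every gene in every cell barcode, as whole numbers with no scaling; the submitters' processing notes name Cell Ranger, Seurat 3.0 and the mm10 build, and the aligner version is not given in the sources used here. The liver library held 25040963 UMIs over 8658 barcodes and the thymus library 17371662 over 4541. The libraries shared 60 barcodes, 56 of them kept.

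Cells with 800 to 4000 genes and at most 6% mitochondrial UMIs were kept. Both libraries were clustered together in Seurat 5.3.0 (R 4.3.3) with LogNormalize, 2000 variable genes less the members and list genes, 30 principal components and resolution 0.6. A cluster was named when the mean log2 ratio of its markers to the other clusters was at least 0.5. At least 3 of the markers had to be detected, and the class had to lead the next by 0.2. The name erythroid-like was never given. The Cd200 cluster scored highest for that class, at 1.77 against 0.61 for naive-like, and so stayed without a name. The clusters were already known when this scoring rule was written. Scrublet (scanpy 1.11.5) called 4 hepatic and 1 thymic cells, so it had not worked, and doublets were kept. The alternative without the highest scores of that run marked 600 hepatic and 165 thymic barcodes, from an assumed rate of 0.8% per 1000 barcodes. It is therefore no check that doublets were removed. Levels are CPM of summed counts with exact Poisson intervals, shares have exact binomial and ratios exact conditional binomial intervals, all at 95% and for counting error only. Cd24a was left out of the totals where it placed the cells, and Klf2 and Cd69 stayed in the totals of the splits by their UMIs. Thinning used seed 11, and 5 hepatic and 7 thymic cells below 1500 UMIs were left out of it. A gene was compared with the 2-fold limit from 50 UMIs in the pair of groups upward, and mitochondrial and ribosomal-protein genes were left out. The interval of a ratio was tested on simulated data. Scripts used Python 3.11.15, numpy 2.4.6, scipy 1.17.1, pandas 2.3.3 and matplotlib 3.10.9.

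The genes named are the 5 members, the listed genes at least 2-fold apart with at least 100 UMIs over both groups, Foxo1, Tbx21, Zeb2 and Ccr7, and the 3 genes most like each member over the sets of at least 50 cells, by Pearson's r of log2(CPM + 10). Examples were taken from these, and some genes of the lists are not reported here. The members, lists and markers were chosen with earlier results of these data known. Alternatives changed the limits on genes, mitochondrial and ribosomal-protein UMIs, the doublets, the total and mean, the thinning, the stage, the resolution and the variable genes.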

Additional observations from a re-analysis of the deposited data

Results flagged for a closer look

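Klf2 differed in opposite directions between naive-like and IL-17-like cells of the tissues. The log2 ratio of naive-like to IL-17-like cells was 0.21 (0.16 to 0.26) in the liver, with 2556 against 2213 CPM, and −0.91 (−1.09 to −0.73) in the thymus, with 667 against 1251 CPM. The difference between these ratios was not tested, since each tissue has 1 library.

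The barcodes left out by the limits on genes and mitochondrial UMIs also held UMIs of these genes. In the 583 hepatic barcodes left out, Klf2 was at 2477 CPM, S1pr1 at 139, S1pr4 at 95.1, S1pr5 at 21.8 and Cd69 at 458. In the 190 thymic barcodes left out, Klf2 was at 802 CPM, S1pr1 at 149.9, S1pr4 at 32.6 and Cd69 at 251.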

How the results depend on the processing

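Of 138 alternative log2 ratios for 17 results, 112 lay inside the counting interval of the reported value, none of the ratios past 2-fold changed sign, and 8 of the ratios reported near 0 did, for S1pr5 and Cd69. No paired analysis was possible because each tissue has 1 library. Leaving out a replicate was likewise not possible. S1pr5 gave no ratio along thymic maturation or between tissues, having 0 thymic UMIs. The 26 values outside the interval follow. With a minimum of 500 genes per cell, naive-like against other hepatic cells gave 1.14 for Klf2 and 0.020 for Cd69, and liver against thymus gave −1.85 for S1pr1. With the highest Scrublet scores removed, Klf2 in naive-like hepatic cells was 1.06, and at resolution 0.8 it was 1.06. With the mean of the cells' own CPM, naive-like hepatic cells gave 1.08 for Klf2 and 2.97 for S1pr1, and liver against thymus gave 1.34 for Klf2, −2.13 for S1pr1, 0.57 for S1pr4 and 0.91 for Cd69. With the total free of mitochondrial and ribosomal-protein genes, naive-like hepatic cells gave 1.24 for Klf2, 2.99 for S1pr1, 0.51 for S1pr4 and 0.17 for Cd69, and liver against thymus gave 1.31, −2.11, 0.58 and 0.89. Cd69 between the tissues was thus under 2-fold in these last alternatives. With the stage read from other immature markers, the thymic course gave 0.97 for Klf2 and −0.27 for Cd69, and without cycling-like, myeloid-like and B-like cells −0.093 for Cd69. With no gene taken out of the variable genes, S1pr5 in naive-like hepatic cells was −1.27. S1pr1 with against without Klf2 UMIs was 0.99 in the thymus when thinned to 1000 UMIs, and 0.75 in the liver and 0.56 in the thymus within each class. The cause was not tested. With 1 library per tissue, none of these intervals holds the spread between mice, and 3' counts of a few UMIs per cell limit S1pr1 and S1pr5 within single classes.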
